A study of Mus musculus with 10 samples.

Results

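The simple epithelial keratins Krt7, Krt8, Krt18 and Krt19 were followed across 4 genotypes of mouse embryonic stem cells. They were taken by gene symbol, from Ensembl identifiers named by GENCODE M21. They are 4 of the 30460 genes listed for each library, and all 4 passed the filter on low values. RNA sequencing covered 10 libraries of C57BL/6 embryonic stem cells, cultured pluripotent cells that derive from the early embryo. Of these, 3 were wild type, 3 were labelled Mga-/-, 2 L3mbtl2-/- and 2 Pcgf6-/-, and no further allele, treatment or agent is named for any group. Mga, L3mbtl2 and Pcgf6 encode subunits of PRC1.6, a Polycomb repressive complex, and each knockout was set against wild type cells and against the other knockouts. The labels do not say whether replicates were separate clones or cultures, so the p-values reflect spread among these libraries that may be technical only.

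Keratins are the intermediate filament proteins of epithelial cells. A filament is built from pairs, each of a type II keratin (here Krt8 and Krt7) and a type I keratin (here Krt18 and Krt19), and a keratin left without a partner is degraded. Krt8 and Krt18 are the first keratins made in the mouse embryo and mark the trophectoderm and later simple, single-layered epithelia such as those of liver and gut. Krt19 is the smallest keratin, with almost no tail domain, and is found in ducts and other simple epithelia, while Krt7 is typical of ducts, bladder and trophoblast.

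On the GRCm38 build with GENCODE M21 annotation, Krt8 (ENSMUSG00000049382) lies at chr15:101996698-102004482 on the minus strand. Krt18 (ENSMUSG00000023043) lies next to it at chr15:102028180-102032027 on the plus strand. The 5′ ends of this pair are 23.7 kb apart and point away from each other. Krt7 (ENSMUSG00000023039) is on the same chromosome at chr15:101411043-101430313 on the plus strand. Krt19 (ENSMUSG00000020911) lies among the type I keratins at chr11:100140810-100148665 on the minus strand. The library kit does not mark strand, so reads of the antisense gene Gm671 over the start of Krt7 and of the lincRNA gene Gm36026 over the first exon of Krt8 could not be told apart from those of the keratins.

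The upstream sequences of the 3 chromosome 15 genes are shown because all 3 genes were lower in every knockout library described below. They come from RefSeq (GRCm38.p6), matched by symbol for 3 of the 4 members, run 5′ to 3′ on the gene's own strand and stop before the first base that GENCODE annotates as UTR or coding. The RefSeq start used for Krt7 lies inside the longer GENCODE gene model, so its sequence is upstream of that start but not of every annotated transcript. Capitals mark the AP-2 word GCCNNNGGC, the letters recognised by AP-2 transcription factors, and the GC box GGGCGG bound by Sp and Klf factors, on either strand.
Krt7 chr15:101412153-101412401 (plus strand): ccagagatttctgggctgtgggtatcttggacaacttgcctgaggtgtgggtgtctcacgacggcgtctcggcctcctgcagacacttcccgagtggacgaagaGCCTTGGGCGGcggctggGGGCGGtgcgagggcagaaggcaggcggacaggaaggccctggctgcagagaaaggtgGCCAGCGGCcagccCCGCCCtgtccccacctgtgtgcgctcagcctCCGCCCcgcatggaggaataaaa
Krt8 chr15:102004483-102004592 (minus strand): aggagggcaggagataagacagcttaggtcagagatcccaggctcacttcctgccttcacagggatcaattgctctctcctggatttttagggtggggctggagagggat
Krt18 chr15:102027966-102028179 (plus strand): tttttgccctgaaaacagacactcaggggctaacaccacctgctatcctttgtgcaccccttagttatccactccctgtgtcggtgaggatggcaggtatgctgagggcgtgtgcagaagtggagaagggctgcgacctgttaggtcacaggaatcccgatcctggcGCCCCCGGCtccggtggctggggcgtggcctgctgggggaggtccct

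Base composition differed between the 3 genes. Bases G and C made up 65.9% of the Krt7 sequence, 53.6% of that of Krt8 and 60.7% of that of Krt18. In windows of 300 bases, from 250 bases before to 50 bases after the RefSeq start, Krt7 held 2 matches of the AP-2 word and 4 of the GC box, 1 of which overlaps an AP-2 match. Krt18 held 1 match of the AP-2 word and Krt8 none of either. Krt8 held the word TATAAA at 2 overlapping places on opposite strands beside its start, in the part not printed. No match was found in these 3 windows for the E-box CACGTG, the word of MGA and MAX type factors, for the T-box half-site GGTGTGA, for the E2F word TTCCCGC or for the AP-1 word TGANTCA. Among 32851 mouse promoter windows of the same length, 16.6% held the AP-2 word, 35.7% the GC box, 13.6% TATAAA, 7.15% the E-box, 3.98% the T-box half-site, 4.60% the E2F word and 7.81% the AP-1 word. A match describes letters in a window and is not evidence of binding.

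Libraries held between 19.4 and 26.7 recovered reads in units of 1e6. For a gene of 2 kb, each read added between 0.0187 and 0.0258 FPKM, the fragments per kilobase of gene scaled to library size. The targeted gene was checked first. Wild type libraries had 19.7, 18.6 and 17.1 FPKM of Mga, against 8.03, 19.6 and 11.2 FPKM in libraries 1, 2 and 3 of the group labelled Mga knockout (the Mga-labelled libraries, or Mga group, below), so the second had a wild type level. L3mbtl2 fell from 19.8, 20.5 and 20.3 to 3.72 and 3.49 FPKM in its knockout, and Pcgf6 from 29.4, 29.7 and 27.6 to 9.56 and 9.82 FPKM in its own. The 3 Mga-labelled libraries also differed more among themselves than other replicates did. The median standard deviation of log2(FPKM + 0.1) over tested genes was 0.338 there. It was 0.086 in wild type and 0.064 and 0.067 in the L3mbtl2 and Pcgf6 knockouts. Each fold change of the 4 keratins between the Mga group and wild type is also given without its second library. Stem cell markers were present throughout, with Pou5f1 between 110 and 181 FPKM over the 10 libraries. The summed FPKM of 8 such markers, with Dppa5a the largest, was 2356 to 2556 in wild type and 3333 to 3551 in the Mga group. It was 3606 to 3677 in L3mbtl2 knockout and 4012 to 4136 in Pcgf6 knockout. This sum was higher in all knockout libraries, where the keratins were lower. Nanog, Esrrb, Zfp42, Dppa5a and Tdgf1 were each above wild type in all of them, but Pou5f1, Sox2 and Utf1 were not. Utf1 was at 318 and 356 FPKM in Mga libraries 2 and 3, against 391, 413 and 441 FPKM in wild type. Sox2 was at 195 FPKM in the first Mga library, against 197, 207 and 216 FPKM in wild type. The part of these markers in the keratin results was not tested.

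Wild type stem cells held high levels of the Krt8 and Krt18 pair, less Krt19 and very little Krt7. Krt8 averaged 175 ± 2.53 FPKM (SD, n = 3) and ranked between 236 and 248 among the 30460 genes. Krt18 averaged 153 ± 3.91 FPKM and ranked between 265 and 280. Krt19 averaged 30.0 ± 1.64 FPKM and Krt7 2.50 ± 0.0692 FPKM. The 4 levels did not overlap between genes in any wild type library, with Krt8 above Krt18 in each. FPKM is a level per length, and the length behind the Krt7 values, 7055 bases, covers a gene model with long extra transcript forms, against 1805, 1400 and 1855 bases for Krt8, Krt18 and Krt19. The Krt7 level is therefore a low estimate beside the others, though its 425 to 481 reads in wild type were also fewer than the 1282 to 1574 of Krt19.

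All 4 keratins were lower in every knockout library than in every wild type library. Against wild type, 4 of 4 passed the test as lower in the Mga-labelled libraries, where 16.7% of all tested genes did, and 4 of 4 in L3mbtl2 knockout, where again 16.7% did. In Pcgf6 knockout 3 of 4 passed, against 4.62% of tested genes. None of the 4 rose, while 22.8%, 23.4% and 5.45% of tested genes did in these comparisons. Groups that did not overlap, with the knockout below, were found for 20.5%, 32.8% and 29.2% of tested genes in these 3 comparisons, in that order. The test was limma's, adjusted over 15731 genes at a threshold of 0.05, and the 3 comparisons share their wild type libraries. In bulk RNA, fewer cells making a keratin and less keratin RNA per cell cannot be told apart. The median log2 fold change of all tested genes was 0.10 in the Mga-labelled libraries, 0.13 in L3mbtl2 knockout and 0.04 in Pcgf6 knockout. Other scalings moved these medians by at most 0.13 and changed no sign for the 4 keratins.

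**Figure D1:**
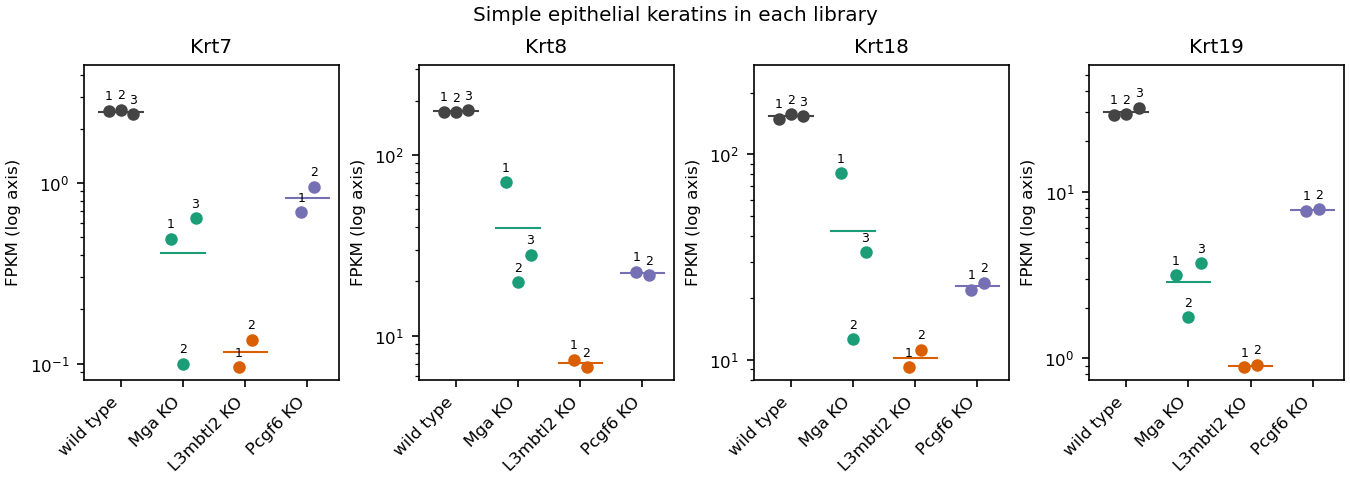
Level of each keratin in FPKM (log axis) in the 10 libraries, by group on the horizontal axis. Points are libraries with their replicate number and bars are group means. All 7 knockout libraries lie below all 3 wild type libraries in each panel, and the 3 Mga-labelled libraries are spread widest on this axis in each.

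Krt8, the type II keratin that pairs with Krt18, stood at 174, 172 and 177 FPKM in wild type. It was at 70.8, 19.8 and 28.0 FPKM in the Mga-labelled libraries, at 7.37 and 6.71 FPKM in L3mbtl2 knockout and at 22.7 and 21.6 FPKM in Pcgf6 knockout. L3mbtl2 knockout was lowest, and the first Mga library kept the most Krt8. Its log2 fold change, on the log2(FPKM + 0.1) scale used throughout, was −4.61 ± 0.42 (SE) in L3mbtl2 knockout, with a 95% interval of −5.57 to −3.65 and an adjusted p of 0.00016 (limma). Among the 15731 tested genes that was the fourth lowest value, rank 4, and Krt8 left the top ranks of expression for ranks 6375 and 6690 in these libraries. In Pcgf6 knockout Krt8 fell by 2.98 ± 0.42 on the log2 scale (interval −3.94 to −2.01, adjusted p = 0.005, limma), rank 8 from the lowest. In the Mga-labelled libraries it fell by 2.36 ± 0.38 (interval −3.22 to −1.50, adjusted p = 0.00193, limma), and by 1.97 without the second of them (adjusted p = 0.00149, limma).

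Krt18, the type I partner, followed closely. It stood at 149, 157 and 154 FPKM in wild type, and it had 80.9, 12.6 and 33.5 FPKM in the Mga-labelled libraries. L3mbtl2 knockout libraries had 9.20 and 11.2 FPKM and Pcgf6 knockout libraries 21.95 and 23.7 FPKM. As for Krt8, the first Mga library kept the most and the second the least of those 3. The log2 fold change was −3.90 ± 0.59 in L3mbtl2 knockout (interval −5.26 to −2.55, adjusted p = 0.0015, limma). It was −2.74 ± 0.59 in Pcgf6 knockout (interval −4.10 to −1.39, adjusted p = 0.0241, limma). In the Mga-labelled libraries it was −2.24 ± 0.53 (interval −3.45 to −1.03, adjusted p = 0.0111, limma), and −1.56 without the second library (adjusted p = 0.00391, limma).

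Krt19, the tail-less type I keratin, stood at 28.9, 29.2 and 31.9 FPKM in wild type. It was at 3.15, 1.76 and 3.70 FPKM in the Mga-labelled libraries, at 0.885 and 0.913 FPKM in L3mbtl2 knockout and at 7.66 and 7.85 FPKM in Pcgf6 knockout. No group overlapped another, and the order was wild type, Pcgf6 knockout, Mga knockout by label, then L3mbtl2 knockout. The L3mbtl2 knockout value, −4.91 ± 0.26 on the log2 scale (interval −5.50 to −4.33, adjusted p = 1.13e-05, limma), was rank 3 from the lowest of all tested genes. Krt19 fell by 3.40 ± 0.23 in the Mga-labelled libraries (interval −3.93 to −2.88, adjusted p = 3.05e-05, limma). Without the second of them the value was −3.10 (adjusted p = 5.47e-07, limma). It fell by 1.94 ± 0.26 in Pcgf6 knockout (interval −2.52 to −1.35, adjusted p = 0.00385, limma). On chromosome 11, which holds Krt19, the median log2 fold change of tested genes was −0.23, 0.13 and −0.31 in the Mga, L3mbtl2 and Pcgf6 comparisons, and on chromosome 15 it was 0.05, −0.02 and 0.09. With each chromosome's median removed, all the calls of the 4 keratins against wild type stood.

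Krt7, the type II keratin of ducts and trophoblast, was the least abundant member and rested on few reads in several knockout libraries. It stood at 2.52, 2.55 and 2.42 FPKM in wild type, at 0.491, 0.0995 and 0.637 FPKM in the Mga-labelled libraries, at 0.0955 and 0.135 FPKM in L3mbtl2 knockout and at 0.689 and 0.959 FPKM in Pcgf6 knockout. The lowest of these values rest on 17 reads in the second Mga library and on 16 and 22 reads in L3mbtl2 knockout. Krt7 fell by 3.60 ± 0.50 on the log2 scale in L3mbtl2 knockout (interval −4.73 to −2.46, adjusted p = 0.000959, limma). The Mga-labelled libraries gave −2.55 ± 0.45 (interval −3.56 to −1.54, adjusted p = 0.00285, limma), and −1.97 without the second one (adjusted p = 0.000188, limma). In Pcgf6 knockout the value was −1.51 ± 0.50 (interval −2.64 to −0.37), and its adjusted p of 0.0931 (limma) missed the threshold although both libraries lay below all wild type libraries. Without the library labelled Mga knockout 2, which enters the shared estimate of the spread, the same Pcgf6 value had an adjusted p of 0.00216 (limma).

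**Figure D2:**
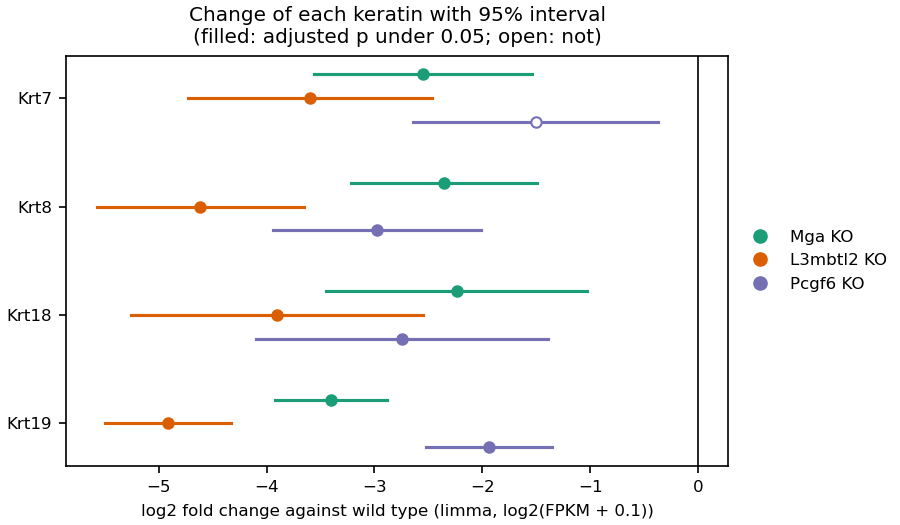
Log2 fold change against wild type of each keratin (rows) in the 3 knockouts (colours), with the 95% interval of limma as a line. Filled points passed the adjusted p of 0.05. Only Krt7 in Pcgf6 knockout, at −1.51, is open, and no interval reaches 0.

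The 3 calls in Pcgf6 knockout rest on both of its libraries. Without either, 1 library is left in the group, none of the calls stood, and calls over all tested genes became far fewer as well. The log2 fold change was −3.01 for Krt8, −2.69 for Krt18 and −1.92 for Krt19 without the first. Without the second it was −2.94, −2.80 and −1.95. Krt18 alone was also lost without any 1 wild type library, with an adjusted p of 0.0760, 0.0791 and 0.0750 (limma). Genes called in those 3 fits fell too, from 1584 with every library to 582, 515 and 621. Sizes hardly moved: the log2 fold change over these omissions lay between −3.01 and −2.94 for Krt8, between −2.80 and −2.69 for Krt18 and between −1.96 and −1.89 for Krt19. In Mga and L3mbtl2 comparisons with wild type, 4 of 4 keratins passed under each of the 20 alternatives run.

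As a share of the wild type mean, the 4 keratins were not lowered alike. L3mbtl2 knockout kept 4.03% of Krt8, 6.66% of Krt18, 3.00% of Krt19 and 4.62% of Krt7, a narrow range for genes that differ much in level. Pcgf6 knockout kept 12.7% of Krt8 and 14.9% of Krt18 but 25.8% of Krt19 and 33.0% of Krt7. In the Mga-labelled libraries Krt19 was lower than the pair, at 9.57% against 22.6% of Krt8 and 27.6% of Krt18. Krt7 averaged 16.4% there, at 19.7%, 3.99% and 25.5% in libraries 1, 2 and 3, below Krt8 and Krt18 in the first 2 and above both in the other. The library means of the Mga group hide a wide range, since Krt18 stood at 52.7%, 8.21% and 21.8% of wild type in its 3 libraries and Krt8 at 40.6%, 11.3% and 16.1%. Krt19 ran from 5.86% to 12.3% there, so its spread was smaller, and its standard deviation of 0.543 on the log2 scale compares with 0.949 for Krt8, 1.34 for Krt18 and 1.01 for Krt7.

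**Figure D3:**
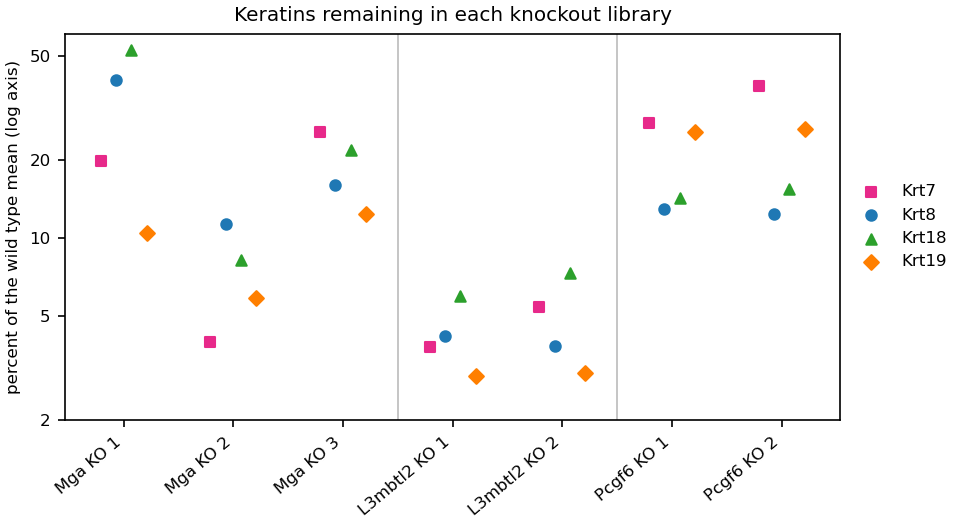
Percent of the wild type mean FPKM (log axis) of each keratin (colour and marker) in the 7 knockout libraries on the horizontal axis. The 4 keratins lie between 2.95% and 7.31% in both L3mbtl2 knockout libraries. Krt19 lies above Krt8 and Krt18 in both Pcgf6 knockout libraries and below both in all 3 Mga-labelled libraries.

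Krt19 relative to Krt8 restates this within each library, where a shared scaling cancels. This ratio was not in the plan of tests and uses the same values, so it is no separate support. Krt19 was 16.6%, 16.9% and 18.0% of the Krt8 level in wild type and 4.45%, 8.90% and 13.2% in the Mga-labelled libraries. In L3mbtl2 knockout it was 12.01% and 13.6%, and in Pcgf6 knockout 33.8% and 36.4%. The groups did not overlap, except that L3mbtl2 knockout 1 lay within the range of the Mga libraries. The log2 ratio differed from wild type by −1.09 in the Mga group, for which a 2-sided exact permutation test gave p = 0.1, the smallest that 3 against 3 allows. It differed by −0.43 in L3mbtl2 and by 1.03 in Pcgf6 knockout, and by −2.12 between the Mga and Pcgf6 groups, each with an exact permutation p = 0.2, the smallest that 3 against 2 allows. Over these 4 tests the Benjamini-Hochberg value was 0.2 for each, so none can reach 0.05 in this design.

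The balance of the Krt8 and Krt18 pair was read the same way. Krt8 divided by Krt18 was 1.16, 1.10 and 1.15 in wild type, 0.875, 1.57 and 0.837 in the Mga-labelled libraries, 0.801 and 0.598 with L3mbtl2 lost and 1.03 and 0.908 with Pcgf6 lost. Both L3mbtl2 and Pcgf6 knockouts lay below all wild type libraries, while the Mga libraries lay on both sides of them. The log2 difference from wild type was −0.71 in L3mbtl2 knockout and −0.23 in Pcgf6 knockout, each with an exact 2-sided permutation p = 0.2, the smallest allowed. It was −0.12 in the Mga group (exact permutation p = 0.9) and turned to 0.009 without replicate 1 and 0.041 without replicate 3.

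Between knockouts, the keratins were lowest in L3mbtl2 knockout. Krt8 was higher in the Mga-labelled libraries than in L3mbtl2 knockout by 2.26 ± 0.42 on the log2 scale (interval 1.30 to 3.22, adjusted p = 0.00653, limma) and Krt19 by 1.51 ± 0.26 (interval 0.92 to 2.09, adjusted p = 0.00423, limma). Krt18 at 1.67 ± 0.59 (interval 0.31 to 3.02, adjusted p = 0.0772) and Krt7 at 1.05 ± 0.50 (interval −0.09 to 2.18, adjusted p = 0.168) did not pass in limma. That is 2 of 4 keratins, where 22.8% of tested genes passed in either direction. Without the library labelled Mga knockout 2, 4 of 4 passed, while all genes called rose from 3591 to 5665. Without the first or the second L3mbtl2 knockout library, 1 library is left in the group. Krt8 then lost its call, and calls over all tested genes became far fewer as well. The Krt8 difference was 2.32 and 2.19 in these fits, and that of Krt19 was 1.49 and 1.53.

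L3mbtl2 knockout also lay below Pcgf6 knockout, without overlap for any of the 4, as did 37% of tested genes. The difference was −2.97 ± 0.28 for Krt19 (adjusted p = 0.000419, limma), −2.09 ± 0.55 for Krt7 (adjusted p = 0.0218, limma) and −1.64 ± 0.46 for Krt8 (adjusted p = 0.0288, limma). Krt18 differed by −1.16 ± 0.65 (interval −2.64 to 0.32) and did not pass, with an adjusted p of 0.207 (limma). These 3 of 4 compare with 30.5% of tested genes called in either direction. Without any one of the 4 libraries compared, 1 library is left in a group. Krt7 and Krt8 then lost their calls, and calls over all tested genes became far fewer as well. Sizes over omissions of 1 library lay between −2.30 and −1.88 for Krt7 and between −1.71 and −1.57 for Krt8. Krt8 also lost its call with chromosome medians removed, at −1.57 with an adjusted p of 0.0524 (limma).

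Between the Mga and Pcgf6 groups 1 of 4 keratins, Krt19, passed, with 22.6% of all tested genes called in either direction. Krt19 was lower in the Mga-labelled libraries (log2 difference −1.47 ± 0.26, interval −2.05 to −0.88, adjusted p = 0.00597, limma). Krt8 differed by 0.62 ± 0.42 (interval −0.34 to 1.58, adjusted p = 0.314) and Krt18 by 0.51 ± 0.59 (interval −0.85 to 1.86, adjusted p = 0.565), with overlapping libraries in both, and Krt7 by −1.04 ± 0.50 (interval −2.18 to 0.09, adjusted p = 0.16). These limma intervals leave room for differences of more than 1 log2 unit. Without the library labelled Mga knockout 2, Krt8 was higher in the Mga group by 1.01 (adjusted p = 0.0481, limma). Krt18 was higher by 1.19 (adjusted p = 0.0244, limma), so 3 of 4 passed, while all genes called rose from 3550 to 6983. Leaving out the first Mga library turned the Krt18 value to −0.15. Without the first or the second Pcgf6 knockout library, 1 library is left in the group. Krt19 then lost its call, and calls over all tested genes became far fewer as well. The Krt19 difference was −1.48 and −1.45 in these fits.

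Most of the other keratins that could be tested were lower in 2 of the 3 knockouts. Of 45 further keratin genes, 36 were too low to test and 9 were tested. Over all tested genes 16.7%, 16.7% and 4.62% were lower in the Mga, L3mbtl2 and Pcgf6 comparisons and 22.8%, 23.4% and 5.45% higher. In the Mga-labelled libraries 6 of the 9 fell and 1 rose, with a median log2 fold change of −2.40. L3mbtl2 knockout had 7 lower and 1 higher, with a median of −2.00, and Pcgf6 knockout 2 lower and none higher, with a median of 0.11. Genes this low pass the filter mostly through the groups where they are high, so these counts describe the list and no more. Krt17, a type I keratin of hair follicles and wounded skin, stood at 80.9 ± 4.45 FPKM in wild type, 7.89 ± 5.41 in the Mga-labelled libraries, 13.4 ± 0.0452 in L3mbtl2 knockout and 20.3 ± 1.06 in Pcgf6 knockout. Its log2 fold changes were −3.54, −2.59 and −1.99 with adjusted p of 0.000219, 0.00161 and 0.0185 (limma). With chromosome medians removed the Pcgf6 value was −1.70 with an adjusted p of 0.0560 (limma).

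Krt42, another type I keratin, followed a different order. It stood at 58.2, 63.5 and 63.7 FPKM in wild type, and it had 6.56, 9.93 and 6.82 FPKM in the Mga-labelled libraries. L3mbtl2 knockout libraries kept 38.3 and 38.0 FPKM and Pcgf6 knockout libraries 66.0 and 67.3 FPKM, the latter above all wild type libraries. The log2 fold change was −3.00 ± 0.14 in the Mga group (adjusted p = 4.42e-06), −0.69 ± 0.16 in L3mbtl2 knockout (adjusted p = 0.00929) and 0.11 ± 0.16 in Pcgf6 knockout (adjusted p = 0.727), by limma. The knockouts differed from each other as well, by −2.31 between the Mga and L3mbtl2 groups (adjusted p = 5.5e-05) and −3.11 between the Mga and Pcgf6 groups (adjusted p = 1.4e-05, limma).

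Krt20, a type I keratin of gut epithelium, fell in all 3 knockouts, from 4.03 FPKM in wild type to 0.678, 1.27 and 0.795 FPKM in the Mga, L3mbtl2 and Pcgf6 groups (adjusted p = 0.000793, 0.00885 and 0.00953, limma). Krt14 and Krt16, keratins of layered epithelia, stood at 1.45 and 1.94 FPKM in wild type. Both fell in the Mga group, to 0.235 and 0.236 FPKM (adjusted p = 0.0034 and 0.002, limma), and in L3mbtl2 knockout, to 0.0966 and 0.177 FPKM (adjusted p = 0.00199 and 0.00296, limma). Neither passed in Pcgf6 knockout, with adjusted p of 0.257 and 0.489 (limma). Krt10, the type I keratin of upper skin layers, was the one that rose, from 0.411 FPKM to 0.914 in the Mga group and 0.981 in L3mbtl2 knockout (adjusted p = 0.0198 and 0.021, limma). Krt13 was listed at 0 in both L3mbtl2 knockout libraries, and Krt28, a hair root sheath keratin, passed as lower in L3mbtl2 knockout only (adjusted p = 0.00642, limma), with no test of the difference given here. Of these keratins, 1 passed in Pcgf6 knockout without any 1 wild type library. All genes called there were then 582, 515 and 621 without library 1, 2 and 3, against 1584 with every library. Fewer passed in L3mbtl2 knockout without its first library and none in Pcgf6 knockout without either of its own, each leaving 1 library.

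Krt8 made up nearly all of the type II keratin RNA, and the totals of the 2 types changed by different amounts. This sum over 24 type II and 25 type I genes was chosen after its values were seen. All type II keratins together gave 177, 176 and 181 FPKM in wild type, 71.9, 20.2 and 29.8 in the Mga-labelled libraries, 7.72 and 7.43 with L3mbtl2 lost and 24.3 and 23.4 with Pcgf6 lost. The type I total divided by the type II total was 1.83 to 1.92 in wild type and 1.39 to 1.99 in the Mga group. L3mbtl2 knockout libraries gave 8.49 and 9.16 and those of Pcgf6 knockout 5.04 and 5.28, where Krt17 and Krt42 made up most of what was left.

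**Figure D4:**
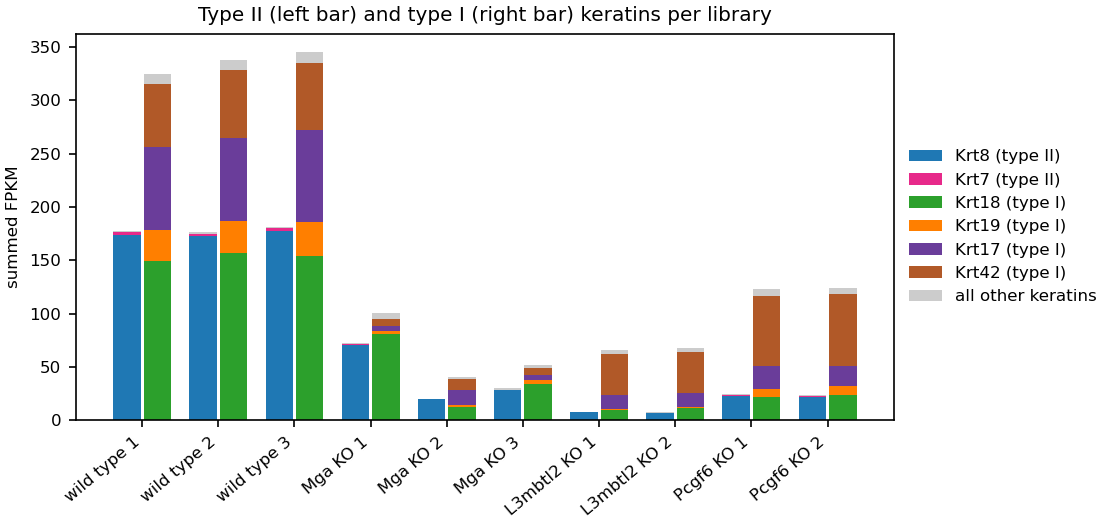
Summed FPKM of type II keratins (left bar of each pair) and type I keratins (right bar) in the 10 libraries, coloured by gene. Type II bars are nearly all Krt8. In L3mbtl2 and Pcgf6 knockout libraries the type I bars are mostly Krt42 and Krt17, while Krt42 is small in the Mga-labelled libraries.

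Keratin filaments attach to desmosomes and hemidesmosomes through plakins and armadillo proteins, and 16 of 19 such genes were tested. Over all tested genes 16.7%, 16.7% and 4.62% were lower in the Mga, L3mbtl2 and Pcgf6 comparisons and 22.8%, 23.4% and 5.45% higher. In the Mga-labelled libraries 9 fell and 4 rose (median log2 fold change −0.90), in L3mbtl2 knockout 7 fell and 5 rose (median −0.86) and in Pcgf6 knockout 5 fell and 1 rose (median −0.37). Dsp, desmoplakin, the plakin that ties keratin to the desmosome, fell from 4.17 ± 0.392 FPKM to 2.18 ± 0.471 in the Mga group, 0.660 ± 0.0487 in L3mbtl2 knockout and 0.947 ± 0.0559 in Pcgf6 knockout. Its log2 fold changes were −0.92, −2.49 and −2.02 with adjusted p of 0.00438, 8.62e-05 and 0.0011 (limma). Jup, plakoglobin, fell from 56.8 ± 1.97 FPKM to 26.0 ± 2.76, 20.0 ± 0.496 and 39.3 ± 0.932 in the same order (adjusted p = 5.2e-05, 2.55e-05 and 0.0115, limma). The Pcgf6 call for Jup was lost with chromosome medians removed, with a fold change of −0.24 and an adjusted p of 0.333 (limma).

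The counts that rose in the Mga and L3mbtl2 comparisons are near the share over all tested genes. Dsg2, desmoglein 2, the main desmosomal cadherin of simple epithelia, rose from 4.45 ± 0.279 FPKM to 11.6 ± 1.27 in the Mga group, 7.86 ± 0.0844 in L3mbtl2 knockout and 10.5 ± 0.312 in Pcgf6 knockout (adjusted p = 5.2e-05, 0.00103 and 0.000825, limma). Pkp3, plakophilin 3, fell from 6.25 to 2.82 FPKM in the Mga group and 2.01 FPKM in L3mbtl2 knockout (adjusted p = 0.000305 and 0.000115, limma), and stood at 6.93 FPKM in Pcgf6 knockout (adjusted p = 0.551, limma). The rises of Dst and Itga6 in the Mga and L3mbtl2 comparisons were lost with chromosome medians removed, and Dst turned to −0.10 in L3mbtl2 knockout. In Pcgf6 knockout 3 in all passed without wild type library 2 or 3, where all genes called fell from 1584 to 515 and 621. Fewer passed in L3mbtl2 knockout without its first library and in Pcgf6 knockout without either of its own, each leaving 1 library in the group.

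**Figure D5:**
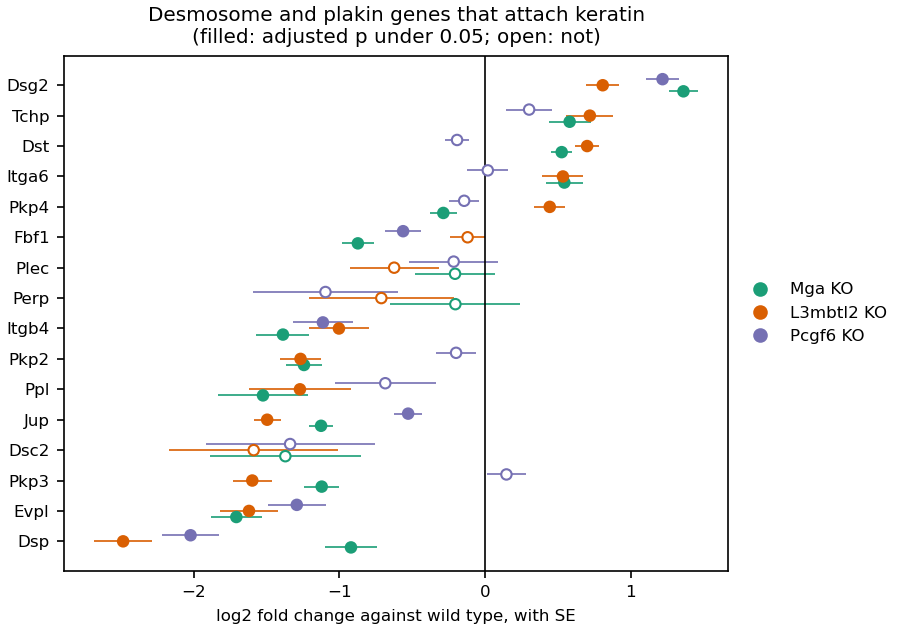
Log2 fold change against wild type, with its SE, of the 16 tested desmosome and plakin genes (rows) in the 3 knockouts (colours). Filled points passed an adjusted p of 0.05 in limma. Dsp and Evpl lie left of 0 in all 3 knockouts and Dsg2 lies right of 0 in all 3.

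Other intermediate filament genes were also counted, beside 16.7%, 16.7% and 4.62% of all tested genes lower in the Mga, L3mbtl2 and Pcgf6 comparisons and 22.8%, 23.4% and 5.45% higher. Of 12, all tested, 5 fell and 1 rose in the Mga-labelled libraries (median −0.37), 5 fell and none rose in L3mbtl2 knockout (median −0.41), and 2 fell and none rose in Pcgf6 knockout (median −0.16). Prph, peripherin of peripheral neurons, went from 18.6 ± 0.759 FPKM to 2.37 ± 1.98 in the Mga group and 1.62 ± 0.581 in L3mbtl2 knockout (adjusted p = 0.00146 and 0.0017, limma), and stood at 4.55 ± 0.0932 FPKM in Pcgf6 knockout (adjusted p = 0.0518, limma). Ina, alpha-internexin, and Nefl, the light neurofilament chain, fell in all 3. Ina went from 28.9 FPKM to 10.97, 20.4 and 13.5 FPKM in the Mga, L3mbtl2 and Pcgf6 groups, and Nefl from 10.8 to 7.38, 2.93 and 4.65 FPKM. Lmnb2, a lamin of the nucleus, went from 28.1 to 18.3 and 11.3 FPKM in the Mga and L3mbtl2 groups (adjusted p = 0.0326 and 0.00331, limma) and stood at 26.2 FPKM in Pcgf6 knockout. Vim, vimentin, the filament of mesenchymal cells, passed in none. It stood at 85.9, 84.2 and 84.8 FPKM in wild type, and it had 193, 53.4 and 78.6 FPKM in the Mga-labelled libraries, the first of which was also highest in Krt8 and Krt18 of the knockouts. The count passing in the Mga group was 3 without any one wild type library. All genes called in the Mga group lay between 4198 and 8647 over omissions of 1 library, against 6210 with every library. Without the first Mga library the filament count was 8 in L3mbtl2 knockout and 4 in Pcgf6 knockout. All genes called in Pcgf6 knockout were then 3586, against 1584 with every library. In L3mbtl2 knockout such omissions gave at most 8515 genes, against 6297 with every library. Fewer filament genes passed in L3mbtl2 knockout without its first library and in Pcgf6 knockout without its second, each leaving 1 library in the group.

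Transcription factors linked to simple keratin genes went both ways. Of all tested genes, 16.7%, 16.7% and 4.62% were lower in the Mga, L3mbtl2 and Pcgf6 comparisons and 22.8%, 23.4% and 5.45% higher, and several of the factor counts are near those shares. Of 20 tested, 6 rose and 4 fell in the Mga group (median 0.02), 4 rose and 6 fell in L3mbtl2 knockout (median −0.50) and 3 rose and 1 fell in Pcgf6 knockout (median −0.03). Klf4, a pluripotency and epithelial factor, rose from 16.9 ± 0.301 FPKM to 130 ± 38.3 in the Mga group, 106 ± 1.34 in L3mbtl2 knockout and 68.4 ± 0.432 in Pcgf6 knockout (adjusted p = 1.24e-05, 4.65e-05 and 0.000803, limma). Klf5 rose from 39.3 ± 1.02 FPKM to 82.0 ± 11.9, 193 ± 10.6 and 79.7 ± 7.47 FPKM in the same order. Tfap2a, an AP-2 factor, rose in the Mga group only among the 3 tests, from 0.422 to 2.00 FPKM (adjusted p = 0.000176, limma), and was also higher there than in L3mbtl2 and Pcgf6 knockouts, which stood at 0.323 and 0.409 FPKM (adjusted p = 0.000254 and 0.00073, limma). In the Mga group 9 rose and 6 fell without its second library. All genes called in the Mga group lay between 4198 and 8647 over omissions of 1 library, against 6210 with every library. In Pcgf6 knockout 10 factors passed without the first Mga library and 7 without the second. All genes called there were then 3586 and 3975, against 1584 with every library. Fewer factors passed without the first Pcgf6 library, which leaves 1 in the group.

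Epithelial junction genes were mostly lower in the Mga group and L3mbtl2 knockout, where 16.7% of all tested genes were lower in each, against 4.62% in Pcgf6 knockout. Of 20 tested, 13 fell and 1 rose in the Mga group (median −0.84), 15 fell and none rose in L3mbtl2 knockout (median −1.61), and 2 fell and 1 rose in Pcgf6 knockout (median −0.47). Epcam, an epithelial adhesion molecule, fell from 134 FPKM to 43.9, 21.1 and 90.5 FPKM in the Mga, L3mbtl2 and Pcgf6 groups (adjusted p = 5.75e-06, 1.12e-06 and 0.00788, limma). Cldn7, a claudin of tight junctions, fell from 21.7 FPKM to 5.24, 1.88 and 10.1 FPKM (adjusted p = 0.000135, 2.14e-05 and 0.0158, limma). Cldn4, another claudin, fell from 75.2 FPKM to 30.4 and 3.56 FPKM in the Mga and L3mbtl2 groups, and Esrp1, an epithelial splicing factor, from 13.1 to 4.86 and 1.97 FPKM. In Pcgf6 knockout they stood at 55.3 and 8.94 FPKM and did not pass (adjusted p = 0.296 and 0.0587, limma). In Pcgf6 knockout 9, 12 and 6 passed without Mga-labelled library 1, 2 and 3 in turn, and the last count has no total over all genes beside it. All genes called there were 3586 without Mga library 1 and 3975 without Mga library 2, against 1584 with every library. None of its junction calls stood without either Pcgf6 library, which leaves 1 in the group.

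Genes beside the keratins were compared within 100 kb. Next to Krt8 and Krt18 on chromosome 15, Eif4b, a translation initiation factor, averaged 254 FPKM in wild type, against 158, 122 and 198 FPKM in the Mga, L3mbtl2 and Pcgf6 groups. It passed as lower in the first 2 (adjusted p = 0.0191 and 0.00645) and not in Pcgf6 knockout (adjusted p = 0.354, limma). Tns2, tensin 2 of focal adhesions, went from 6.37 FPKM to 2.61 and 1.80 FPKM in the Mga and L3mbtl2 groups (adjusted p = 0.00024 and 0.000101) and stood at 5.27 FPKM in Pcgf6 knockout (adjusted p = 0.287, limma). Spryd3, beyond Tns2, stood at 8.35, 9.82, 8.53 and 7.59 FPKM in the 4 groups and passed in none. The tested neighbours of Krt19 were Krt13, Krt14 and Krt16, given above, and no gene within 100 kb of Krt7 passed the filter.

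Markers of other cell types were read beside the keratins, since trophoblast and endoderm cells also make Krt7, Krt8, Krt18 and Krt19. The summed FPKM of 12 trophoblast markers was 58.7 to 63.9 in wild type, 46.6 to 123 in the Mga-labelled libraries, 27.6 to 28.1 in L3mbtl2 knockout and 48.7 to 49.7 in Pcgf6 knockout. The defining genes Elf5, Tpbpa and Prl3d1 reached at most 0.103, 0.031 and 0.243 FPKM in any library. For 12 endoderm markers the sum was 238 to 242 in wild type and 193 to 432 in the Mga group. It was 340 to 343 in L3mbtl2 knockout and 253 to 256 in Pcgf6 knockout, most of it Sparc. Afp, Ttr and Apoa1 reached at most 0.491, 0.069 and 0.135 FPKM. Gata4 stood at 0.278 to 0.472 FPKM in wild type and 1.88 to 5.91 FPKM in the knockout libraries. Gata6 went from 0.258 to 0.340 FPKM up to 0.362 to 2.75 FPKM, and Sox17 from 0.063 to 0.118 FPKM up to 0.174 to 0.938 FPKM. Lama1 was lower in L3mbtl2 knockout, at 6.51 and 6.66 FPKM against 11.6, 11.9 and 11.6 FPKM in wild type. It stood at 1.79, 11.5 and 10.3 FPKM in the Mga-labelled libraries and was higher in Pcgf6 knockout, at 15.6 and 15.8 FPKM. The 8 surface epithelium markers summed to 143 to 156, 63.6 to 132, 30.7 to 32.8 and 158 to 165 FPKM in the same order, nearly all Sfn and Grhl3, with Krt5, Trp63, Dsg3, Krt15 and Krt6a at 0.102 FPKM or below.

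Fibroblast and macrophage markers differed between groups as well. The 10 fibroblast markers summed to 177 to 179 FPKM in wild type, 148 to 520 in the Mga group, 197 in both L3mbtl2 knockout libraries and 142 to 146 in Pcgf6 knockout. The highest sum, 520, was in the first Mga library, which also had the highest endoderm sum of 432 and the most Krt8 and Krt18 of the knockouts. The 8 macrophage markers summed to 140 to 147 in wild type, 8.50 to 31.6 in the Mga group, 375 to 387 in L3mbtl2 knockout and 186 to 190 in Pcgf6 knockout. The part of other cells in the keratin levels was not tested.

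Over the 10 libraries, the genes most like the 4 keratins were ranked by Pearson correlation with the mean log2(FPKM + 0.1) of the keratins, as a description over libraries that share 4 genotypes. The closest was Igf2, an imprinted growth factor (r = 0.989), at 39.2 FPKM in wild type and 8.74, 4.19 and 9.03 FPKM in the Mga, L3mbtl2 and Pcgf6 groups. Lgals9, galectin 9, came next (r = 0.982) with 18.7, 4.08, 2.36 and 5.74 FPKM, followed by Phf19 (0.979), Cthrc1 (0.977), Oasl2 (0.976) and Parp10 (0.975). The most opposite were Ttc39b (r = −0.988), Zfp57 (−0.985), an imprint-protecting zinc finger gene, and Cul2 (−0.983), a ubiquitin ligase scaffold. Mean Zfp57 was 61.4 FPKM in wild type against 119, 183 and 120 FPKM in the Mga, L3mbtl2 and Pcgf6 groups.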

How the data were processed

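The values are FPKM per gene, deposited by the authors. Per the submitters' processing notes, Bowtie2 2.2.3, TopHat2 2.0.12 and HTSeq 0.6.0 were used with GRCm38, and the scaling of FPKM is not given in the sources used. Low values move in whole-read steps, from which reads and the length behind each keratin's FPKM were recovered.

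Groups and replicate numbers came from the labels. limma 3.58.1 (R 4.3.3) was fitted to log2(FPKM + 0.1) of the 15731 genes that reached 0.5 FPKM in 2 or more libraries, in 1 model of all 10 libraries with group as the only term and a variance prior that follows expression. P-values were adjusted by Benjamini-Hochberg over these genes with a threshold of 0.05, and fold changes of genes near 0 are understated on this scale. The code was tested on simulated data.

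The 4 keratins and all gene lists were chosen with earlier results of these data known. Named genes are the keratins, the 3 targeted genes, up to 4 list genes with the smallest p, other keratins that passed (up to 8), neighbours within 100 kb, and the 6 most and 3 least correlated genes. Vim, Evpl, Dst, Itga6, Hand1 and Esx1 were named after their values were seen. The other cell type markers named singly are also outside the rule above. A gene that the rule takes is not reported here. Alternatives covered the pseudocount, filters, scalings, a replicate block, library weights, 2-group fits and each library left out.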

Additional observations from a re-analysis of the deposited data

How the results depend on the processing

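Against wild type, all 240 alternative fold changes of the 4 keratins kept their sign and 226 of them their side of the threshold. The exceptions all concern Pcgf6 knockout. Krt7 passed there with a pseudocount of 1 (−0.94, adjusted p = 0.0107, limma), with library weights (−1.52, adjusted p = 0.000184) and in a fit of 2 groups (−1.51, adjusted p = 0.000379). Leaving out 1 library gave ranges of −1.72 to −1.29 for Krt7, −3.01 to −2.94 for Krt8, −2.80 to −2.69 for Krt18 and −1.96 to −1.89 for Krt19, and 0 to 4 keratins called. Between knockouts such omissions gave 1 to 4 keratins called for Mga against L3mbtl2, 0 to 3 for Mga against Pcgf6 and 1 to 4 for L3mbtl2 against Pcgf6. The Krt18 difference of Mga against Pcgf6 turned to −0.15 without the first Mga library and was 1.19 without the second, and the log2 Krt8 to Krt18 difference of the Mga group ranged from −0.41 to 0.041, passing through 0.009.

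With the replicate number as a block, 992 genes were called in Pcgf6 knockout against wild type and Krt18 lost its call there (−2.73, adjusted p = 0.0598, limma). Groups share replicate numbers, but no label says that a number pairs libraries. Over 13 pairs of libraries with the same number, deviations from group means correlated between −0.020 and 0.035, and 3 of 10 libraries correlated best with their own number.

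With library weights, 9572, 11414 and 7969 genes were called against wild type in the Mga, L3mbtl2 and Pcgf6 groups, and 7760, 7947 and 10458 for Mga against L3mbtl2, Mga against Pcgf6 and L3mbtl2 against Pcgf6, with 4 and 2 keratins in the first 2 of these. Fits of only the 2 groups compared called 4054, 10525, 7096, 634, 231 and 9809 genes in the same order, with 0 keratins for Mga against L3mbtl2 and 0 for Mga against Pcgf6. Leaving out 1 library gave 4198 to 8647, 2829 to 8515, 154 to 3975, 1098 to 5862, 772 to 6983 and 1635 to 7359 genes. Loss of a call with fewer libraries goes with fewer residual degrees of freedom by construction; the cause of the other changes was not tested.

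List counts moved most in Pcgf6 knockout. Junction genes called there were 6 with a pseudocount of 1, 5 with a filter of 1 FPKM in 3 libraries, 6 with median-of-ratios, 6 with upper-quartile and 6 with chromosome-centred values, 16 with library weights and 16 with 2 groups, and 0 to 12 without 1 library. Other keratins were 6, 1 and 5 there with weights, chromosome-centred values and 2 groups (0 to 3 without 1 library), desmosome and plakin genes 12, 3 and 13 (2 to 7). Other intermediate filament genes were 6 with weights and 8 with 2 groups (1 to 4), and factors 13 and 12 (2 to 10). In L3mbtl2 knockout, intermediate filament genes were 9 and 9 (3 to 8), factors 16 and 16 (7 to 13), other keratins 5 with the stricter filter (4 to 9), and desmosome and plakin genes 7 to 15 without 1 library. In the Mga group other keratins were 11 with no filter and intermediate filament genes 3 to 7 without 1 library. The chromosome-centred fit and the list counts under alternatives were added after seeing the data.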
